A study of Mus musculus with 14 samples.

Results

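Tbr1, Eomes, Emx1, Emx2, Neurog2, Neurod6, Fezf2 and Bcl11b are transcription factors of the lineage that gives rise to the excitatory projection neurons of the cerebral cortex. They were taken by symbol from a table of mean normalised counts for each of 2 fetal ages, and the 8 genes were found among 41934, each with a single entry and a mean above 10 at both ages. The RNA came from whole brains of individual male mouse fetuses on a C57BL/6J genetic background, 6 at embryonic day E13.5 (4 Dio3+/+ and 2 Dio3-/-) and 8 at E18.5 (3 Dio3+/+ and 5 Dio3-/-). The genotypes were littermates from matings of heterozygous parents. Dio3-/- fetuses carry in all cells a mutation that inactivates the type 3 deiodinase, the enzyme that breaks down thyroid hormone, while their Dio3 mRNA is still made.

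Each table gives 1 mean per gene over all libraries of the age, with both genotypes pooled, and no value of a single fetus. The levels below are these authors' means, and they have no standard deviation and no test. Levels in Dio3-/- brains were not compared with those in Dio3+/+ brains here, because the tables give that contrast only as the study's own fold changes and p-values, which were not used. Dio3 itself had a mean of 99.0 at E13.5 and of 129 at E18.5, as deposited and over both genotypes. By qPCR, the paper reports that Dio3 expression in wild type brain fell between these ages. It also reports more Dio3 mRNA in Dio3-/- than in Dio3+/+ brains at both ages. The pooled means thus do not give the wild type course of Dio3, and they cannot check the genotype labels. In whole brain, fewer cells of a type and less RNA per cell cannot be told apart.

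In the developing dorsal telencephalon, radial glia divide at the ventricle and produce intermediate progenitors and then neurons that migrate outwards to form the cortical layers. Emx1 and Emx2 are homeodomain proteins that pattern the dorsal progenitor field. Neurog2 is a proneural factor that commits progenitors to glutamatergic fate, Eomes (also called Tbr2) marks intermediate progenitors, and Tbr1 and Neurod6 mark neurons that have left the cell cycle. Fezf2 and Bcl11b (also called Ctip2) specify the deep-layer neurons that project out of the cortex, and Bcl11b is also abundant in striatal projection neurons. Several of these genes are also made outside the cortex, Neurog2 in progenitors of other brain regions among them, so that a level in whole brain is not that of the cortex alone.

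The members lie on 7 chromosomes of GRCm38. Tbr1 (ENSMUSG00000035033.15) spans chr2:61802930-61814114 and Neurog2 (ENSMUSG00000027967.8) chr3:127633135-127635631, both on the plus strand. Chromosome 6 holds Neurod6 (ENSMUSG00000037984.9) at chr6:55677822-55681263 on the minus strand and Emx1 (ENSMUSG00000033726.8) at chr6:85187438-85204462 on the plus strand. Eomes (ENSMUSG00000032446.14) lies at chr9:118478212-118486132 and Emx2 (ENSMUSG00000043969.4) at chr19:59458372-59465357, again on the plus strand. Bcl11b (ENSMUSG00000048251.15) at chr12:107910403-108003602 and Fezf2 (ENSMUSG00000021743.6) at chr14:12342094-12348189 are on the minus strand. In the annotation, the exons of 2 members overlap those of a gene on the other strand. Emx2os shares 264 bases with Emx2, which is 8.79% of the exon sequence of Emx2, and Gm33460 shares 118 bases with Eomes, or 2.84% of its exon sequence. The counting did not use the strand, so that reads in these stretches cannot be assigned to either gene.

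The 2 members that differed most between the ages, Neurod6 and Neurog2, are shown by the sequence before their start. The RefSeq promoter windows are on GRCm38.p6, run 5′ to 3′ on the gene's own strand and are cut before the first annotated exon base, at chr6:55681264-55681513 (minus strand, 250 bases) and chr3:127632886-127633134 (plus strand, 249 bases). Capitals mark the searched motifs that were found, a CCAAT box read on the other strand in Neurod6 and a TATAA core in Neurog2.
Neurod6: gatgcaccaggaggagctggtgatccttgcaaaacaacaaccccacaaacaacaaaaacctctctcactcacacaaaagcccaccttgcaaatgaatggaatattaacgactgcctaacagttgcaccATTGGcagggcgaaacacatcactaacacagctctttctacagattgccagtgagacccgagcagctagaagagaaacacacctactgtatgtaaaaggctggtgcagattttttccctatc
Neurog2: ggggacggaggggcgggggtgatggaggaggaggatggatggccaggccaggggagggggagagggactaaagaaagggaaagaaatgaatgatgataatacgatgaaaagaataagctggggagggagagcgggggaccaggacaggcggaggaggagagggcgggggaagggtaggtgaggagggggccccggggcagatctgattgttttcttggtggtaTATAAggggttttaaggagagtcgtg

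The motifs were searched on both strands in the 250 bases before the RefSeq start of each of the 8 members. This start can lie inside the GENCODE gene. All 250 bases of the Tbr1, Emx1 and Emx2 windows, 188 of the Bcl11b window, 94 of the Fezf2 window and 1 of the Neurog2 window were in annotated exons, against 0 for Eomes and Neurod6. CCAAT was found in 3 members (Eomes, Emx2 and Neurod6) and in 33.8% of all 32851 promoter windows. TATAA was found in 2 members (Eomes and Neurog2) and in 22.8% of all windows. TAATTA, the core of many homeodomain sites, was found in 1 member, Tbr1, where it occurs at 2 places, and in 4.84% of all windows. The E-boxes CAGATG and CAGCTG, which are read by proneural factors, were found in 0 of the 8 members and in 14.4% and 13% of all windows. The T-box site AGGTGTGA was found in 0 members and in 1.12% of all windows. These matches describe the letters of the windows alone. No motif overlaps another in the printed sequences.

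At E13.5 the members with the highest levels per kilobase of exon were Neurog2 and Bcl11b. Neurog2 had a mean count of 2400 and Bcl11b of 7385, and per kilobase of the union of annotated exons they reached 1078 and 911. Neurod6 followed with a mean count of 1743, or 811 per kilobase. Neurog2, Bcl11b and Neurod6 stood above 93.9%, 91.9% and 90.4% of the 14745 protein-coding genes with a mean of at least 10. Tbr1 had a mean count of 2364 (431 per kilobase), Emx2 of 1133 (377 per kilobase) and Eomes of 1009 (243 per kilobase). Fezf2 and Emx1 were lowest, with mean counts of 579 and 307, or 190 and 140 per kilobase, and Emx1 stood above 47.8% of the protein-coding genes. The highest level was 7.67 times the lowest. Neighbours in this order differed by factors between 1.12 (Bcl11b over Neurod6) and 1.88 (Neurod6 over Tbr1), and without values per fetus it is not known which of these steps exceed the spread between fetuses.

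At E18.5 the order was led by Neurod6, with a mean count of 6344, or 2951 per kilobase, above 99.1% of the 14860 protein-coding genes ranked at this age. Bcl11b came next with a mean count of 9832 (1212 per kilobase) and Tbr1 with 4374 (797 per kilobase), above 96.1% and 92.2% of these genes. Fezf2 had a mean count of 888, or 291 per kilobase. The other members lay close together per kilobase, with 167 for Emx2, 162 for Eomes, 142 for Neurog2 and 93.7 for Emx1, from mean counts of 503, 671, 315 and 205. Neurog2, first in the order at E13.5, was seventh at E18.5 and stood above 52.7% of the protein-coding genes. The highest level was 31.5 times the lowest, so that the members were spread more widely than at E13.5. The step from Emx2 to Eomes was the smallest, a factor of 1.04, and the order of this pair was turned when the longest transcript replaced the union of exons. With the coding length in its place, Emx2 ranked 4, Fezf2 5, Neurog2 6 and Eomes 7, while the ranks of the other members stayed.

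**Figure D1:**
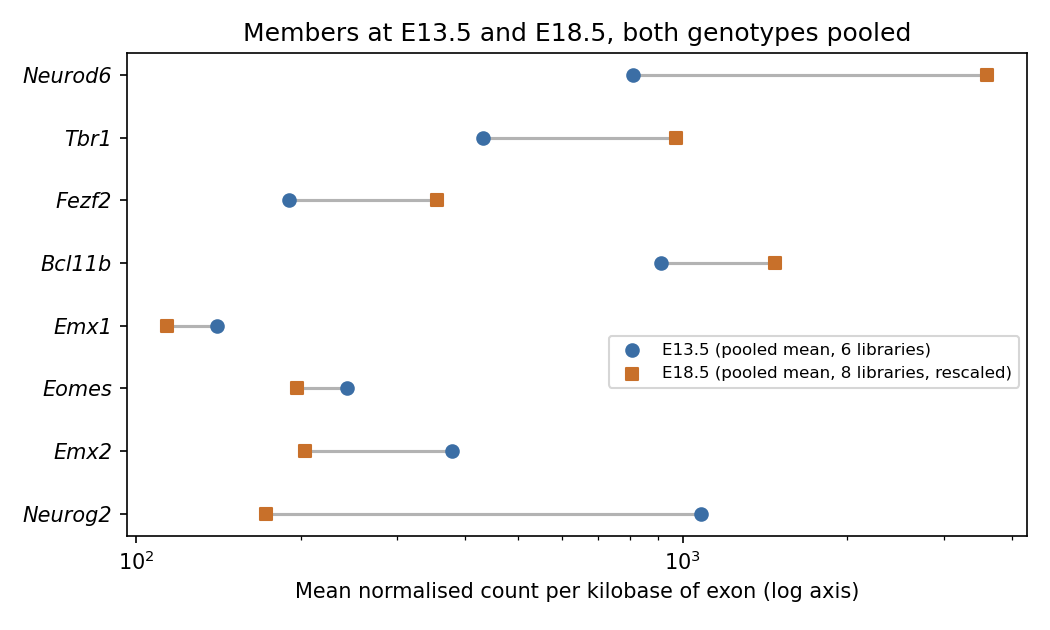
Mean normalised count per kilobase of exon (log axis) of the 8 members at E13.5 (circles, mean over 6 libraries) and E18.5 (squares, mean over 8 libraries, rescaled to the E13.5 table), both genotypes pooled and without error bars because no values per fetus were given. Neurod6, Tbr1, Fezf2 and Bcl11b lie further right at E18.5, and Emx1, Eomes, Emx2 and Neurog2 further left.

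To set the ages side by side, the E18.5 means were rescaled by the median ratio of 17794 genes with a mean of at least 10 at both ages, a shift of -0.28 on the log2 scale before rescaling. The tables were normalised separately, so that these ratios are a description with no test. The factors of postmitotic neurons were higher at E18.5 and the proneural factor was lower. Neurod6 was 4.43-fold higher at E18.5 than at E13.5 (log2 ratio 2.15) and Tbr1 was 2.25-fold higher (log2 ratio 1.17). Neurog2 was 6.25-fold lower (log2 ratio -2.64). Thus 2 of the 8 members were at least 2-fold higher, against 12.1% of all 17794 genes, and 1 was at least 2-fold lower, against 5.61% of all genes. With the means as deposited, without rescaling, Neurod6 and Neurog2 still differed by at least 2-fold, but Tbr1 had a log2 ratio of 0.89 and Emx2 one of -1.17.

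The other 5 members differed by less than 2-fold after rescaling. Fezf2 and Bcl11b, the factors of deep-layer neurons, were 1.87-fold and 1.62-fold higher at E18.5 (log2 ratios 0.90 and 0.70). Emx2 was 1.85-fold lower (log2 ratio -0.89), while its homolog Emx1 and the intermediate progenitor factor Eomes were each lower by a factor near 1.23 and 1.24 (log2 ratios -0.30 and -0.30). Among the log2 ratios of all 17794 genes, Neurod6 stood at percentile 97.5, Tbr1 at 90.5, Fezf2 at 86.1 and Bcl11b at 81.6. Eomes and Emx1 stood at percentiles 28.4 and 28.6, Emx2 at 6.99 and Neurog2 at 0.191. The antisense gene Emx2os had a mean of 178 at E13.5 and, as deposited, of 84.3 at E18.5, and its rescaled log2 ratio of -0.80 was near that of Emx2. Gm33460, the antisense gene at Eomes, had means of 3.84 and 4.52.

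The share of Dio3-/- libraries differed between the ages, 2 of 6 against 5 of 8, so that age and genotype mix cannot be told apart in these ratios. The libraries were also sequenced in 2 batches, and the labels used here do not say which library was in which. Age and batch mix can therefore not be told apart either. The pooled means do not fix the direction of the difference between the ages within the Dio3+/+ group for any member.

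**Figure D2:**
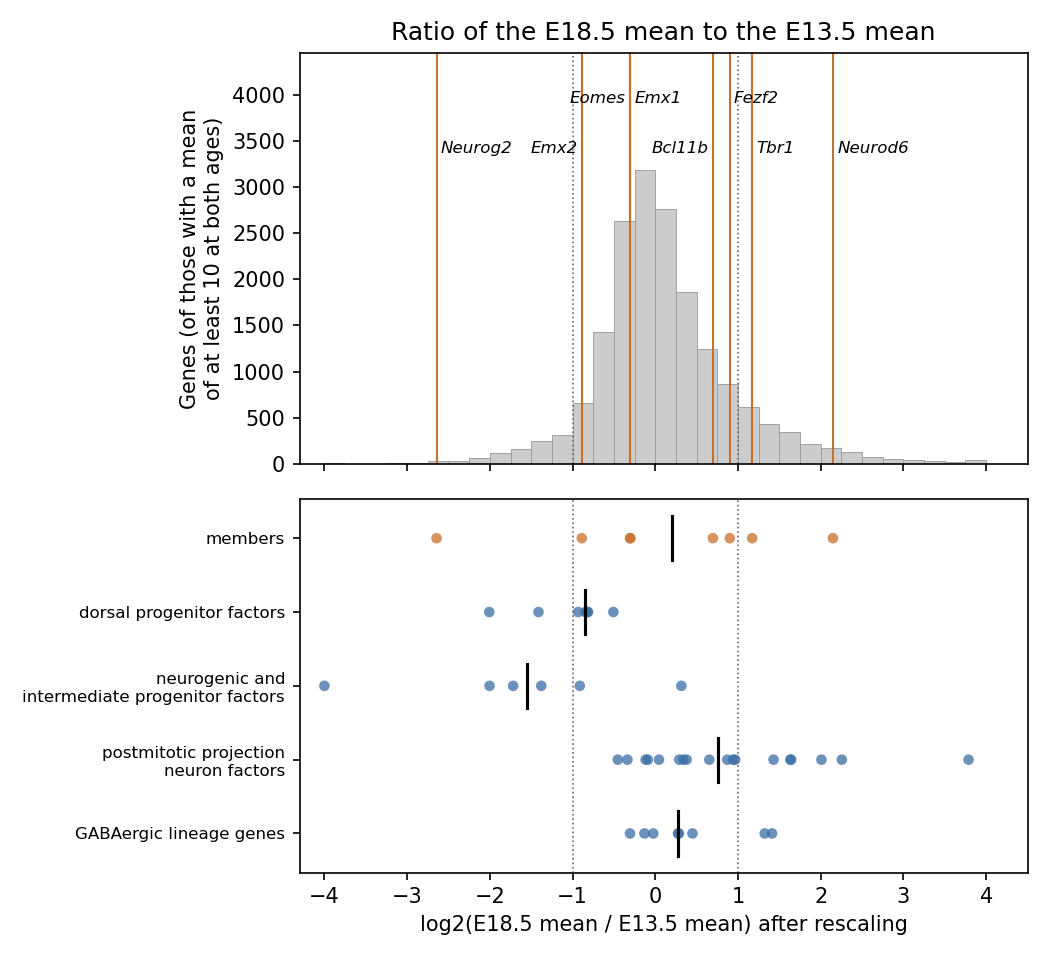
Upper panel, number of genes (of 17794 with a mean of at least 10 at both ages) by log2 ratio of the rescaled E18.5 mean to the E13.5 mean in steps of 0.25, with values beyond 4 in either direction counted in the outermost bars and the members as vertical lines. Lower panel, each gene of the members and of 4 related lists as a point, with the list median as a bar and Neurog1 (log2 ratio -5.43) drawn at -4; dotted lines mark 2-fold, which Neurod6, Tbr1 and Neurog2 passed.

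Ratios between members inside 1 table need no rescaling between the ages. Per kilobase, Neurod6 was at 0.752 times the level of Neurog2 at E13.5 and at 20.8 times at E18.5, which is a 27.7-fold change of the ratio. Tbr1 changed from 0.40 to 5.63 times the level of Neurog2, and Eomes from 0.225 to 1.14 times. The pair of T-box factors also moved apart, with Tbr1 at 1.77 times the level of Eomes at E13.5 and at 4.94 times at E18.5. Other pairs had ratios that changed less. Tbr1 was at 0.473 times the level of Bcl11b at E13.5 and at 0.658 times at E18.5, a change by a factor of 1.39. Emx1 was at 0.372 times the level of Emx2 at E13.5 and at 0.560 times at E18.5, and Fezf2 was at 0.209 and 0.240 times the level of Bcl11b. The ratio of Fezf2 to Bcl11b thus changed by a factor of 1.15, the smallest among the pairs computed. The genotype mix of each age enters these ratios as well.

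**Figure D3:**
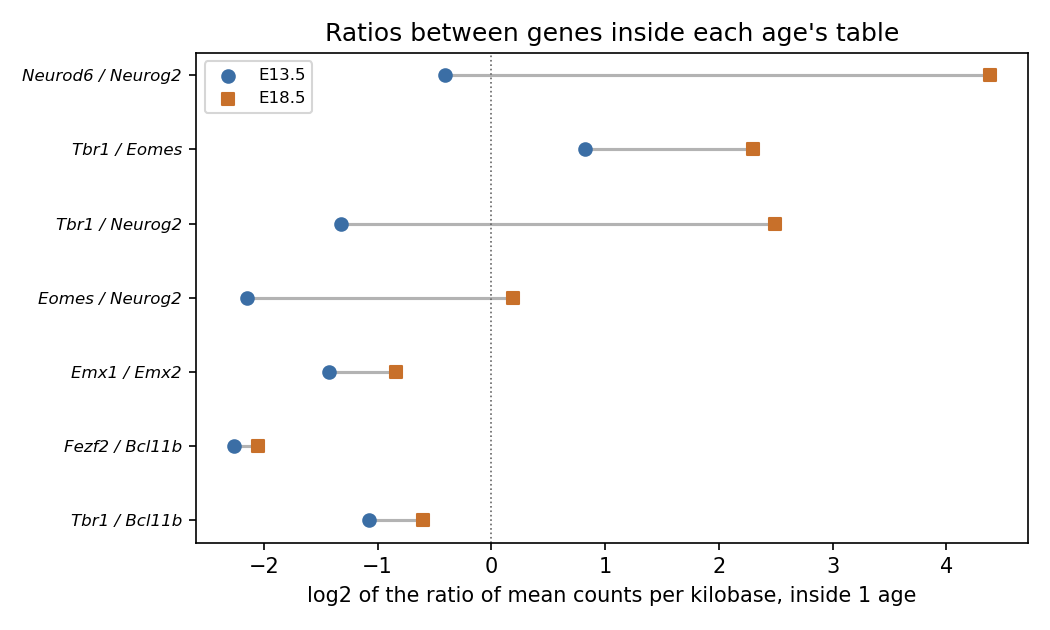
log2 of the ratio of mean counts per kilobase between 2 genes inside 1 age, at E13.5 (circles) and E18.5 (squares), for 7 pairs chosen after the levels were known. The ratio of Neurod6 to Neurog2 moved from 0.752 to 20.8, whereas that of Fezf2 to Bcl11b stayed between 0.209 and 0.240.

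Other genes that act in this lineage were grouped by the stage they are known from. Their levels are also those of whole brain, so that a list does not give a stage of the cortical lineage alone. The log2 ratios below are rescaled, and the mean counts given beside them are as deposited at each age. Of all 17794 genes, 12.1% were at least 2-fold higher at E18.5 and 5.61% at least 2-fold lower. These shares need a mean of at least 10 at both ages, whereas the lists need it at either age. Neurog1 is therefore in its list but not in the shares. Of 7 dorsal progenitor factors, 2 were at least 2-fold lower at E18.5 and 0 at least 2-fold higher, with a median log2 ratio of -0.84. Gli3, a mediator of Hedgehog signaling, was the lowest of them (4619 at E13.5 and 944 at E18.5, log2 ratio -2.01), and Pax6, a paired-box factor of radial glia, was the highest (1833 and 1060.2, log2 ratio -0.51). Of 6 neurogenic and intermediate progenitor factors, 4 were at least 2-fold lower and 0 at least 2-fold higher, with a median of -1.55. Neurog1, the paralog of Neurog2, was the lowest, with means of 413 and 7.89 and a log2 ratio of -5.43, and Neurod1, a bHLH factor downstream of the neurogenins, was the highest (1279 and 1307, log2 ratio 0.32).

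Of 18 postmitotic projection neuron factors, 6 were at least 2-fold higher at E18.5 and 0 at least 2-fold lower, against 12.1% and 5.61% of all genes. Their median log2 ratio was 0.76. The highest was Mef2c, a MADS-box factor of maturing neurons, with means of 1029 and 11668 (log2 ratio 3.79), and the lowest was Pou3f2, a POU factor of upper-layer neurons (8267 and 4960, log2 ratio -0.45). For comparison, of 8 genes of the GABAergic lineage, 2 were at least 2-fold higher and 0 at least 2-fold lower, with a median of 0.28, between Dlx2, a homeodomain factor of interneuron progenitors (1333 and 886, log2 ratio -0.31), and Gad1, which makes GABA (2000.2 and 4373, log2 ratio 1.41). The median over the 8 members was 0.20, and they split into 4 with a higher and 4 with a lower mean at E18.5.

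The labelled tissue was checked against marker genes, all of them with a mean of at least 10 at one age or more and summed as deposited. The 4 neuron markers summed to a mean count of 114232 at E13.5 and 127407 at E18.5, and the 3 radial glia markers to 41282 and 16130. Among the neuron markers the rescaled log2 ratios were -0.04 for Tubb3, 0.47 for Map2, 0.93 for Stmn2 and 1.68 for Snap25, so that the sum hides unlike values. The radial glia markers did not move together. Nes and Vim were at least 2-fold lower at E18.5, while Fabp7 was higher (5848 and 7425, rescaled log2 ratio 0.63). Genes of red cells and cartilage were also counted, and 4 of 5 and 3 of 4 of them were at least 2-fold lower at E18.5, against 5.61% of all genes. The 5 red cell markers summed to 29579 and 3524, and most of that fall was Hbb-y, at 21476 and 7.95. Hba-a1, Hba-a2 and Hbb-bt had rescaled log2 ratios between -1.46 and -1.27, and Hbb-bs (2280 and 1614) one of -0.21. The sum is thus no measure of the red cells present. The 4 cartilage markers summed to 10566 and 2393, with Col2a1 at 5728 and 424. Sox9, in the cartilage list, is also made by radial glia. It had means of 4543 and 1859 and was just past the 2-fold line (rescaled log2 ratio -1.01). Acan (140 and 64.1, rescaled log2 ratio -0.84) and Matn4 (155 and 46.6) added little to the sum. The 3 skeletal muscle markers summed to 188 and 143. Of these, 2 were at least 2-fold higher at E18.5 and 1, Myh3 (132 and 19.6), at least 2-fold lower, against 12.1% and 5.61% of all genes. The 3 choroid plexus markers summed to 4162 and 13086, and each was at least 2-fold higher at E18.5, against 12.1% of all genes. Most of that sum was Ttr, at 4030 and 12817, while Kl had means of 64.8 and 138 and Folr1 of 67.9 and 131. The part of these cells in the member ratios was not tested.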

How the data were processed

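Whole-brain RNA of 14 male fetuses was sequenced in 2 batches after ribosomal depletion. The authors trimmed reads with cutadapt 3.1, aligned them with STAR 2.5.3a to GRCm38 (GENCODE VM22), removed rRNA and tRNA with bedtools 2.26.0, counted reads with HTSeq without strand, adjusted the counts between batches with ComBat-seq and ran DESeq2 1.30.1. The adjustment can change levels, and its effect was not analysed here. The deposited value used is a signal, the authors' mean over the libraries of an age of counts divided by size factors. These means summed to 28582629 at E13.5 and 24565726 at E18.5, and the tables give no depth of single libraries. The tables also hold log2 fold changes, standard errors, Wald statistics and p-values of the authors' own comparison, which were not used.

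Groups were taken from the labels. Gene models came from GENCODE M21 (GRCm38), matched without version numbers for 41897 of 41934 genes. Levels were divided by the union of exon lengths. E18.5 means were rescaled by the median ratio, and ratios were described against a 2-fold line. The scaling step was tested on simulated data, in which few genes were changed and up and down were drawn alike. That test cannot show how the scaling behaves with the many and uneven differences seen between the ages. Python 3.11.15, numpy 2.4.6, pandas 2.3.3 and matplotlib 3.10.9 were used. Alternatives were other scalings, filters at means of 0 and 100, a 1.5-fold line and other gene lengths. The genes named are all members, genes that overlap them, Dio3, and the highest and lowest ratio of each related list; marker genes outside this rule, the motifs and the pairs were chosen after values were seen. Of the related lists, 2 genes are not reported here, and counts and medians leave them out. The members and lists were chosen with earlier results of these data known.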

Additional observations from a re-analysis of the deposited data

How the results depend on the processing

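The direction of the difference between the ages was the same for all 8 members under the 6 other scalings and filters tried. One of these, the median ratio of protein-coding genes, was chosen after seeing the data. Each of them adds 1 constant to all log2 ratios, between -0.28 and 0.02. Constants of this size could not turn the direction of any member, so that the agreement is no separate support. The count of members at least 2-fold higher was 2 and that of members at least 2-fold lower was 1 in 5 of the 7 alternatives. With the means as deposited the counts were 1 and 2, against 8.40% and 10.1% of all genes, and with a 1.5-fold line they were 4 and 2, against 21.4% and 14.0%. The log2 ratios over the scalings and filters ranged from 1.86 to 2.17 for Neurod6, from 0.89 to 1.19 for Tbr1, from -2.93 to -2.62 for Neurog2 and from -1.17 to -0.87 for Emx2. Without a filter the share of all genes at least 2-fold lower was 10.5%, in place of 5.61%. Summed means of protein-coding genes shifted all log2 ratios by -0.10 against the median ratio, and the means as deposited by -0.28. Ranks per kilobase changed for 2 of 16 at E13.5 and 6 of 16 at E18.5 with other gene lengths. Percentiles among all genes with a mean above 0, in place of protein-coding genes, moved by over 5 points for 5 of the 8 members at each age. No paired analysis was possible because the tables hold no values per library, and for the same reason no library could be left out.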

Other observations

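Bcl11b is the member on the chromosome of Dio3. On GRCm38 the end of Bcl11b and the start of Dio3 lie 2.28 megabases apart on chromosome 12. The entry Gm26917, annotated as a long noncoding RNA, had the largest mean at both ages. It held 4.62% of the summed means at E13.5 and 2.22% at E18.5. Ribosomal RNA was depleted with a different kit in each batch, and the source of the reads counted for Gm26917 was not tested.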
